A study of Sus scrofa with 15 samples.

Results

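The 55 genes described here belong to the protein folding and secretory traffic families of the pig mammary gland. The rule that picks them reads the gene name and no measured value. Each is a gene of the count tables whose Ensembl identifier the gene list supplied with the study pairs with a symbol of these families. The families are the translocon, signal recognition and signal peptidase subunits (SEC, SRP, SSR, TRAM, SPCS), the chaperones and disulfide isomerases (HSP, DNAJ, PDIA), the derlins, the coatomer, golgin and ARF exchange proteins, the Rab GTPases with their partners, the syntaxins, the sorting nexins and the VPS proteins. Of 25322 genes in the tables, 13503 reached at least 1 CPM (counts scaled to the library total) in at least 3 of the 15 libraries and were tested, and all 55 matching genes were among them. The members closest to that limit were RAB11FIP2 and RAB3A, with 3.24 and 4.16 CPM in the library ranked 3 from the top, and no matching gene lay below it. The list names only part of each family, since 1772 of the genes tested had a symbol in it, so well known members such as HSPA5 are not among the 55. A RefSeq gene table gave 43 of the 55 the same symbol and held no entry for 11. The gene called RAB1B in the study's list (ENSSSCG00000008359) is named RAB1A there, so which of the pair it is remains uncertain.

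RNA was sequenced from mammary biopsies of 3 crossbred Danish Landrace × Yorkshire sows of 2nd parity at 14, 10, 6 and 2 d before parturition and 1 d after it. The sows were picked from a larger feeding cohort for their high colostrum yield, and each ate a different diet, so an effect of diet cannot be separated from the sow. The 3 libraries of a time point are therefore 3 animals, and the same 3 animals return at every time point. No time point was given a treatment of its own, and every comparison with 14 d prepartum shares those 3 control libraries. The test diets began late in gestation, so the earliest biopsies may precede them while later ones follow them. Each later biopsy also followed earlier biopsies of the same sow, with anesthesia and Banamine. The start of the diets and these procedures therefore cannot be separated from time, and their part was not tested.

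Secreted and membrane proteins, the caseins and whey proteins of milk among them, enter the endoplasmic reticulum (ER) through the SEC61 channel while they are being made. Inside it the signal peptide is cut off, disulfide bonds form and chaperones of the heat shock and J protein families assist folding, while proteins that fail to fold are passed back out for degradation. Coated vesicles then carry cargo between the ER and the Golgi, and Rab GTPases, tethers and syntaxins direct the later fusion steps up to secretion, endosomes and lysosomes.

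Total counts per library ranged from 10782343 to 19952918 with a median of 17726719. Values below are CPM after TMM normalization, a scaling by the trimmed mean of log ratios between libraries, and within a time point they are given in the order sow 1, sow 2 and sow 3. A gene was called when 2 edgeR quasi-likelihood tests, the overall test across the 5 time points and that of the comparison itself, each passed an adjusted p of 0.05 (Benjamini-Hochberg, over all 13503 genes). Replicate 37, from sow 1 at 1 d postpartum, stood apart: it had the lowest total, a TMM factor of 0.545 against 0.829 to 1.24 in the others, and gave 53.8% of its counts to its 10 highest genes. That share was 16.6% to 19.5% at 14 d prepartum and 30.5% to 53.8% at 1 d postpartum. Without TMM, on library totals alone, the median of all genes shifted by -0.42 (log2) between 14 and 2 d prepartum and by -0.64 between 14 d prepartum and 1 d postpartum, so the differences below are relative to the bulk of genes and the split on library totals is given beside them. As a share of all counts the 55 genes together held 0.480% to 0.520% at 14 d prepartum and 0.452% to 0.508% at 1 d postpartum.

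The biopsies are mixed tissue, in which fewer cells of a type and less RNA per cell cannot be told apart. Marker lists moved unevenly. The summed CPM of 9 mammary epithelium markers was 1583 to 1773 at 14 d prepartum, 1251 to 1324 at 2 d prepartum and 1236 to 2586 at 1 d postpartum. In the last comparison 4 of them rose, among them DDR1, and 2 fell, TFAP2C and FOXA1, while KRT8 was present at means of 374 and 433 CPM. The 9 fibroblast markers summed to 3680 to 6862, 3403 to 3828 and 1902 to 3661 CPM at the same times, with 1 called up and 1 down at 1 d postpartum. The 8 endothelium markers summed to 206.5 to 267 CPM at 14 d prepartum and 189.7 to 221 at 1 d postpartum, with 1 called up and 1 down. For 11 leukocyte markers the sums were 386 to 435 and 327 to 389 CPM, with 3 called down, and for 3 B and plasma cell markers 12.96 to 15.2 and 14.1 to 15.3 CPM, with 1 called down. The sum of CIDEA and CIDEC, listed as adipocyte markers, went from 2.05 to 3.89 CPM up to 19.8 to 125 CPM, with only CIDEA called up. Both had an unadjusted edgeR p of 0.05 or less, beside 43.7% of all genes. For both, the 3 postpartum libraries lay above the 3 of 14 d prepartum, beside 19.5% of all genes. Their log2 fold changes were far apart, at 6.69 and 0.71, so the sum does not show how far each rose. Between 14 and 2 d prepartum edgeR called 0 of the 42 markers, of which 13 had an unadjusted p of 0.05 or less. With the sow as a block, 3 mammary epithelium and 3 fibroblast markers were called down there, and DESeq2 called 2 epithelium markers down, beside 487 and 466 of all 13503 genes. The part of cell makeup in the results below was not tested.

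By edgeR 27 of the 55 genes rose and 1 fell at 1 d postpartum against the 14 d controls, and 27 were not called. Against 14 d prepartum, 0 of 55 members were called at 10 d and 0 at 6 d, where 0.0% of all genes were called in each. At an unadjusted p of 0.05 these comparisons held 1 and 5 members, against 2.19% and 8.81% of all genes, and DESeq2 called 0 members at 10 d and 1, STX7, lower at 6 d, beside 0.267% of all genes. At 2 d prepartum 8 members rose and 1 fell, which is 14.5% of members up where 1.96% of all genes were called up and 0.896% down. The median log2 fold change of the members was 0.20 and that of all genes -0.01. The 27 that rose at 1 d postpartum are 49.1% of members, where 13.3% of all genes were called up and 10.4% down, with medians of 0.54 and 0.02. Among the 1772 genes tested that the study's list names, 15.5% were called up and 12.1% down at 1 d postpartum, and 2.37% and 1.24% at 2 d prepartum.

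The last step, from 2 d prepartum to 1 d postpartum, raised 8 members and lowered 1, beside 8.01% and 7.24% of all genes, with a median of 0.22 for the members. Between 6 and 2 d prepartum 0 of 55 were called by edgeR, which called 0.00741% of all genes. DESeq2 also called 0, beside 18 up and 26 down of all 13503 genes. By edgeR 16 members nevertheless had an unadjusted p of 0.05 or less, all of them higher at 2 d, against 7.98% of all genes. In that interval the 3 later libraries all lay above the 3 earlier ones for 22 members and below for 2, against 9.54% and 8.56% of all genes. For 1 d postpartum against 14 d prepartum the corresponding counts were 30 and 3, against 19.5% and 19.4% of all genes. Sow by sow, 33 members exceeded their 14 d prepartum value after parturition in 3 of 3 sows and 5 did so in 0. The highest mean lay at 1 d postpartum for 37 of the 55 members, and the lowest lay at 14 d prepartum for 24. Shares over all genes were not counted for the sow-by-sow and highest or lowest mean counts, so these only describe the members.

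Calls at 2 d prepartum depended on single libraries more than those after parturition. Leaving out any of the 14 d prepartum libraries, or either of replicates 28 and 31 at 2 d prepartum, left 0 members called up there. In those fits 17 to 21 were still higher at an unadjusted p of 0.05 or less, beside 13.9% to 19.4% of all genes in either direction. Leaving out any 10 d or 6 d library left 3 to 5 called up, and leaving out replicate 37 raised the count to 21. The count at 1 d postpartum lay between 22 and 26 over all 15 such fits. Of the 28 calls at 1 d postpartum against 14 d prepartum, 22 were made in each of the 15 fits. The others were DNAJC12, called in 13, RAB3GAP1 in 8, HSPB8 in 7, DNAJC17 in 5, GOLT1B in 4 and ARFGEF1 in 1. Of the 9 calls at 2 d prepartum 0 were made in each of the 15 fits, and of the 9 in the last step 4 were. With the sow as a block, 13 members rose at 2 d prepartum and 28 at 1 d postpartum, beside 5.07% and 16.3% of all genes, the 5 additional at 2 d being ARFGEF1, GOLGA5, RAB13, SEC24C and SEC61A1. On library totals without TMM the split was 2 up and 3 down at 2 d prepartum, beside 1.18% and 9.39% of all genes. It was 9 up and 13 down at 1 d postpartum, beside 3.94% and 38.2%, and 3 up and 3 down for the last step, beside 2.83% and 13.4%. With the RNA integrity number of each library as a term in the edgeR fit, 0 of 55 members were called against 14 d prepartum at either time, beside 0.0% and 0.563% of all genes. The member medians were then 0.27 and 0.57, and 1 and 14 members had an unadjusted p of 0.05 or less, beside 3.69% and 14.2% of all genes. The last step kept 7 up and 1 down, beside 506 up and 493 down of all 13503 genes.

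Most calls came from 4 roles: translocation into the ER, folding in the ER, ER to Golgi traffic and the Golgi. Of their 24 members 21 were called up at 1 d postpartum, against 6 of the other 31, beside 13.3% of all genes. The difference between the roles was not tested. Without TMM 4 translocation and 4 ER folding members were called up, beside 3.94% of all genes. On that scale 0 of the ER to Golgi and 0 of the Golgi members were called up.

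**Figure D1:**
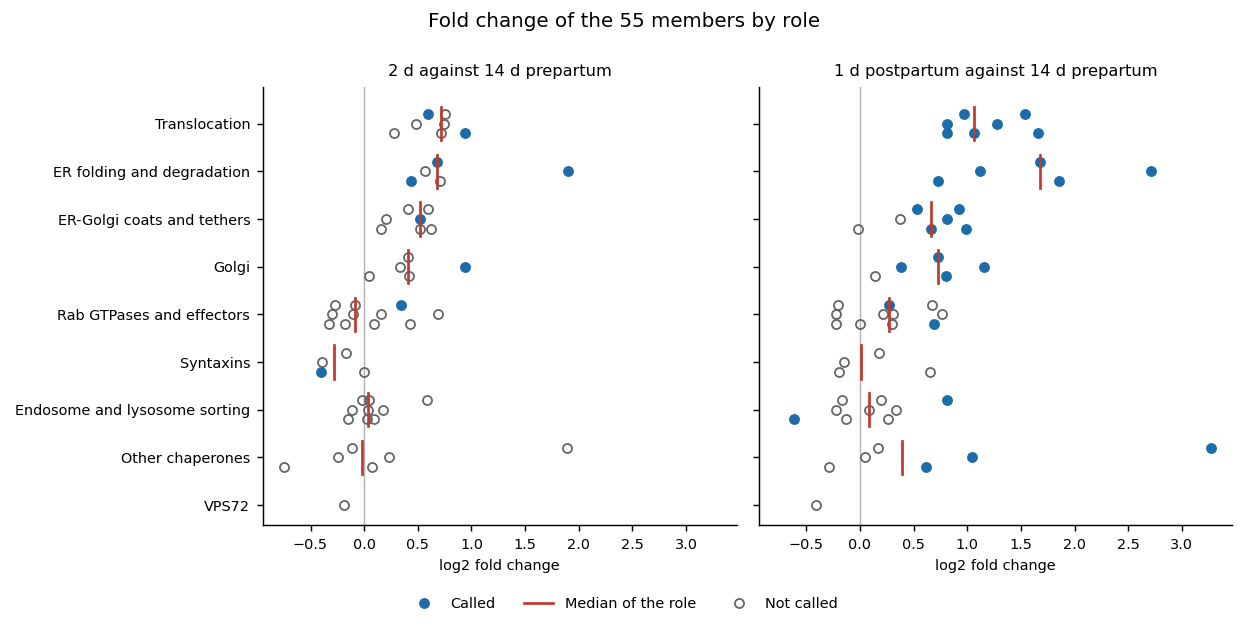
Log2 fold change (x axis) of each of the 55 members against 14 d prepartum, at 2 d prepartum on the left and at 1 d postpartum on the right, by role on the y axis; filled points were called, open points were not, and the bar is the median of the role. At 1 d postpartum all 7 translocation and all 5 ER folding members were called up around medians of 1.06 and 1.68 (0.33 and 0.90 without TMM scaling). The 4 syntaxins had a median of 0.01 (-0.62 without TMM scaling).

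Translocation genes rose together. All 7 were called at 1 d postpartum around a median of 1.06 on the log2 scale, while without TMM the medians were 0.30 at 2 d prepartum and 0.33 at 1 d postpartum and 4 of the 7 were called. SEC61A1 (ENSSSCG00000011621, chr13:79737140-79751188 on Sscrofa10.2), the channel subunit itself, measured 10.8, 11.5 and 9.06 CPM at 14 d prepartum, 20.5, 20.4 and 11.7 at 2 d prepartum and 45.4, 29.4 and 24.8 at 1 d postpartum. Its postpartum libraries lay above every earlier one and sow 3 lagged at 2 d prepartum. The log2 fold change was 1.66 (SE 0.23, edgeR adjusted p = 0.000215) over the whole interval and 0.91 for the last step, also called.

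SSR1 (ENSSSCG00000001022, chr7:4677876-4698116) and SSR2 (ENSSSCG00000006501, chr4:102753769-102764968) encode subunits of the translocon-associated protein complex, which helps nascent chains into the channel. SSR1 read 38.7, 56.9 and 52.6 CPM at 14 d prepartum, 81.9, 90.7 and 70.9 at 2 d prepartum and 244, 103 and 84.2 at 1 d postpartum. The groups did not overlap with the controls, but the postpartum value of sow 1 was far above those of the other sows, and the log2 fold change of 1.53 (SE 0.31, edgeR adjusted p = 0.0024) became 0.91 without replicate 37. SSR2 was steadier, at 466, 369 and 381 CPM, then 614, 666 and 555, then 887, 668 and 582. It rose by 0.59 on the log2 scale at 2 d prepartum (SE 0.15, edgeR adjusted p = 0.0468) and by 0.81 at 1 d postpartum (SE 0.15, edgeR adjusted p = 0.00104), though without TMM neither difference was called.

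TRAM1 (ENSSSCG00000006193, chr4:70399155-70429614), a membrane protein next to the channel, stood at 143, 149 and 162 CPM, then 251, 307 and 208 at 2 d prepartum and 592, 242 and 269 at 1 d postpartum. In the last step it was higher in sows 1 and 3 and lower in sow 2. Over the whole interval its log2 fold change was 1.28 (SE 0.26, edgeR adjusted p = 0.00246), and 0.74 without replicate 37.

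SPCS1 (ENSSSCG00000011447, chr13:38039440-38041636), a subunit of the signal peptidase complex that removes signal peptides, was already up at 2 d prepartum. Its values were 103, 104 and 99.9 CPM at 14 d prepartum, 199.97, 239 and 149.8 at 2 d prepartum and 300.01, 179 and 162 at 1 d postpartum. The controls were tightly grouped and below every library of these later times, and the log2 fold changes were 0.94 (SE 0.21, edgeR adjusted p = 0.0314) and 1.06 (SE 0.21, edgeR adjusted p = 0.00194). The remaining translocation members were SRP54, which binds the signal sequence, and SEC63, the J protein of the channel, with log2 fold changes of 0.97 and 0.81 at 1 d postpartum. SEC63 also rose in the last step, by 0.53 on the log2 scale, a call that was lost without replicate 37.

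**Figure D2:**
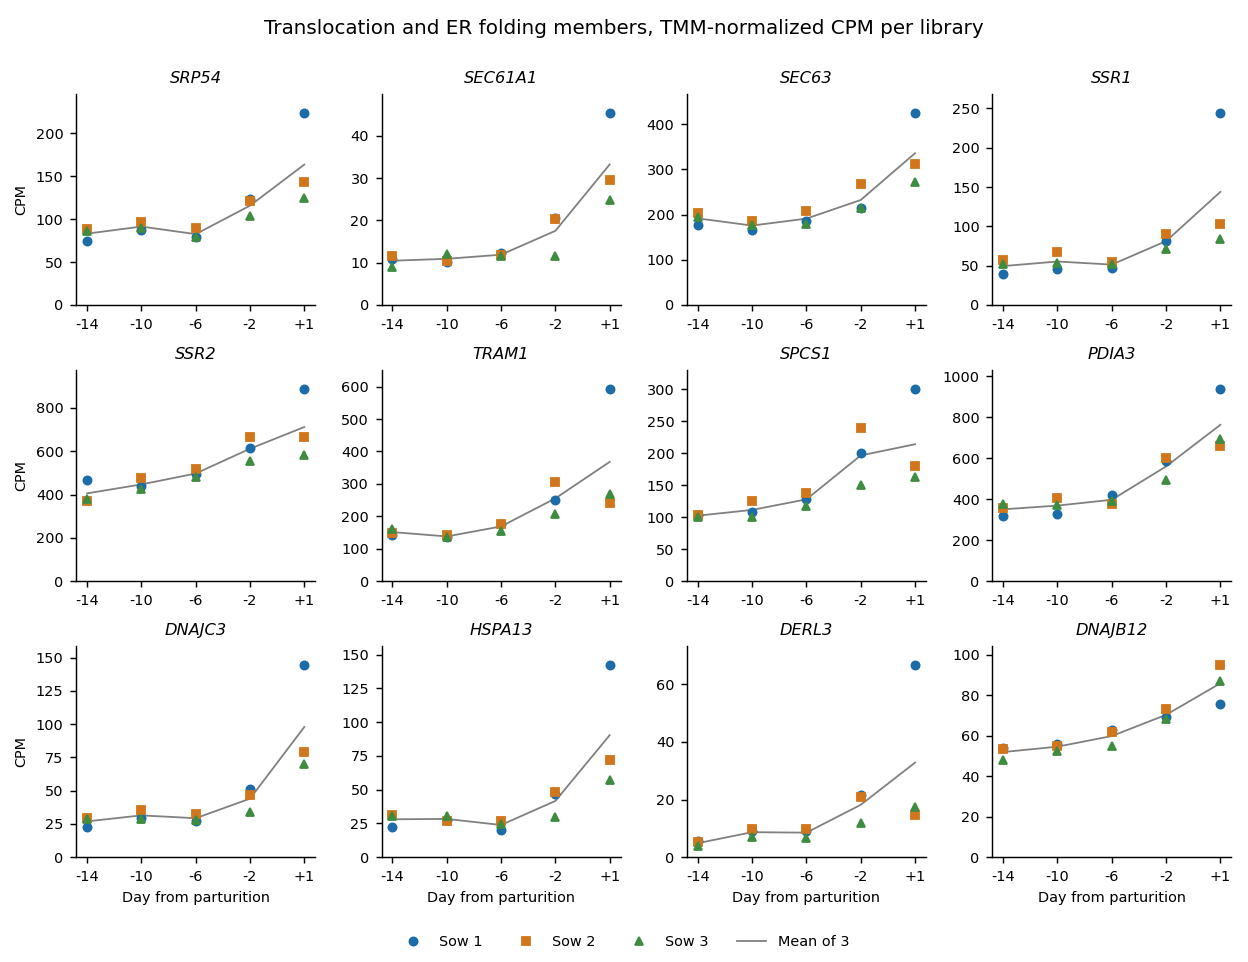
TMM-normalized CPM (y axis) of the 7 translocation and 5 ER folding members against day from parturition (x axis), 1 point per library, symbols marking the sow and the line joining the means of 3 libraries. The means climb after 6 d prepartum, and sow 1 at 1 d postpartum is the highest point of its time for 11 of the 12 genes.

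ER folding and degradation members had the highest median of the roles at 1 d postpartum, 1.68 on the log2 scale or 0.90 without TMM, and all 5 rose. PDIA3 (ENSSSCG00000004700, chr1:142615686-142643747), the disulfide isomerase that works with calnexin and calreticulin on glycoproteins, was the only member called in each of the 3 comparisons just counted. It measured 320.1, 355 and 376 CPM at 14 d prepartum, 328, 406 and 371 at 10 d, 422, 378 and 391 at 6 d, 585, 599 and 496 at 2 d and 937, 658 and 694 at 1 d postpartum. The 5 time points fell into 3 levels, and neither the 2 d nor the postpartum libraries overlapped with an earlier time. Its log2 fold changes were 0.68 (SE 0.14, edgeR adjusted p = 0.0242) at 2 d prepartum, 1.12 (SE 0.14, edgeR adjusted p = 0.000102) at 1 d postpartum, a 2.18-fold rise, and 0.45 (SE 0.14, edgeR adjusted p = 0.0408) for the last step. The last of these was called in 5 of the 15 fits with a library left out, and without TMM the difference at 2 d prepartum was 0.26 and not called.

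DNAJC3 (ENSSSCG00000026082, chr11:72092330-72161779), a J protein of the ER lumen that also restrains the kinases of the stress response, rose after parturition. It was at 22.5, 29.7 and 28.6 CPM at 14 d prepartum, 51.0, 46.8 and 34.3 at 2 d prepartum and 144, 79.2 and 70.3 at 1 d postpartum, with no overlap between any of these times. The change from 14 d prepartum to 1 d postpartum was 1.85 (SE 0.24, edgeR adjusted p = 0.000126), and 1.15 of it fell in the last step, also called. HSPA13 (ENSSSCG00000012007, chr13:189549389-189561047), an ATPase of the heat shock protein family found on microsomes, followed a like course. Its values were 22.2, 31.6 and 30.4 CPM, then 47.1, 48.1 and 29.8, where sow 3 was still within the control range, then 142, 72.0 and 56.8. It gave 1.68 (SE 0.29, edgeR adjusted p = 0.000802) over the interval, and 1.18 without replicate 37.

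DERL3 (ENSSSCG00000010069, chr14:53313340-53315404), a derlin of the ER membrane through which misfolded proteins leave for degradation, had the largest fold change of the ER members. It was at 5.68, 5.24 and 3.73 CPM at 14 d prepartum and 21.5, 21.05 and 11.95 at 2 d prepartum, which is 1.90 on the log2 scale (SE 0.47, edgeR adjusted p = 0.0486). At 1 d postpartum it read 66.5, 14.5 and 17.4, so sow 1 was far above and sow 2 below its own value of 2 d prepartum, and the change of 2.72 (SE 0.48, edgeR adjusted p = 0.000988) became 1.69 (SE 0.27, edgeR adjusted p = 0.000382) without replicate 37. DNAJB12 (ENSSSCG00000010288, chr14:81218678-81239411), a J protein anchored in the ER membrane, was the exception among these genes in that sow 1 had its lowest postpartum value. It went from 54.1, 53.5 and 48.2 CPM to 69.3, 73.3 and 68.4 and then to 75.7, 94.7 and 87.2, with log2 fold changes of 0.44 (SE 0.10, edgeR adjusted p = 0.03) and 0.73 (SE 0.10, edgeR adjusted p = 0.000148). Without TMM neither DNAJB12 difference was called.

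Sow 1 stood higher than the other sows after parturition in several roles. The ratio of replicate 37 to the mean of the other postpartum libraries had a median of 0.983 over all genes and 1.21 over the members, with 1.93 for ER folding, 1.68 for translocation, 1.35 for ER to Golgi traffic and 1.23 for the Golgi, and 0.940 for the Rab group and 0.656 for the syntaxins. The differences between roles in that ratio were not tested. With replicate 37 left out, 26 members still rose and 2 fell at 1 d postpartum, beside 15.0% and 13.5% of all genes, and the member median was 0.36. All 7 translocation and all 5 ER folding genes remained called, with medians of 0.73 and 1.18. At 2 d prepartum 21 members then rose and 1 fell, beside 6.05% and 3.79% of all genes, among them 6 of the 7 translocation and 4 of the 5 ER folding genes.

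In ER to Golgi traffic 5 of 7 members rose at 1 d postpartum and 1 at 2 d prepartum, with medians of 0.67 and 0.52, the first of which was -0.02 without TMM. COPZ1 (ENSSSCG00000000290, chr5:20379745-20399578), the zeta subunit of the COPI coat that returns vesicles to the ER, measured 177, 172 and 174 CPM at 14 d prepartum, 259, 273 and 219 at 2 d prepartum and 323, 257 and 250.4 at 1 d postpartum. Both later times were clear of the controls but overlapped each other. Its log2 fold changes were 0.52 (SE 0.11, edgeR adjusted p = 0.0304) and 0.67 (SE 0.11, edgeR adjusted p = 0.000792), and without TMM the second was -0.02 and not called.

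RAB1B (ENSSSCG00000008359, chr3:80675213-80706547, the gene with the uncertain name), a GTPase of the ER to Golgi step, was at 220.1, 232 and 216 CPM, then 355, 399 and 275, then 649, 324 and 351. Only sow 1 was higher after parturition than every library of 2 d prepartum. The change at 1 d postpartum was 0.98 (SE 0.22, edgeR adjusted p = 0.00457) and 0.58 without replicate 37, and on library totals it was 0.23 and not called. COPB2, another COPI subunit, rose by 0.93 on the log2 scale, SEC24C, a cargo adaptor of the COPII coat, by 0.54 and GOLT1B, a Golgi transport protein, by 0.81 (SE 0.25, edgeR adjusted p = 0.0226). GOLT1B read 152 CPM in sow 1 after parturition and 67.2 and 68.4 in the other sows, and its call was among those lost without replicate 37 (log2 fold change 0.31, edgeR adjusted p = 0.081). SEC23A, the partner of SEC24 proteins in the COPII coat, was not called at 0.38 (edgeR adjusted p = 0.051), nor was SEC22C at -0.02.

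Golgi members rose in 4 cases of 5, around a median of 0.73, or 0.05 without TMM. GOLPH3L (ENSSSCG00000006650, chr4:107721375-107756760), a Golgi membrane protein related to the oncoprotein GOLPH3, had 49.6, 36.9 and 37.4 CPM at 14 d prepartum, 78.2, 100.1 and 58.6 at 2 d prepartum and 116, 87.6 and 72.9 at 1 d postpartum. It was higher than the controls in every later library of these times, by 0.93 (SE 0.21, edgeR adjusted p = 0.0347) and 1.16 (SE 0.21, edgeR adjusted p = 0.00124) on the log2 scale, differences that were not called without TMM. The golgins GOLGA4 and GOLGA5, which tether vesicles, rose by 0.80 and 0.73, and ARFGEF1, an exchange factor that activates ARF GTPases, by 0.38. VPS52, of the complex that receives vesicles from endosomes, was at 0.14 and not called.

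Of 11 members of the Rab group 2 rose at 1 d postpartum, which is 18.2% beside 13.3% of all genes. Their median was 0.27 and without TMM it was -0.40. RAB3GAP1 (ENSSSCG00000015695, chr15:19210945-19269515), the catalytic subunit of the GTPase-activating complex for RAB3, was at 65.2, 65.8 and 67.6 CPM, then 78.0, 82.1 and 92.0, then 76.4, 80.0 and 82.5. The step was small and narrow in spread, 0.34 (SE 0.08, edgeR adjusted p = 0.0404) at 2 d prepartum and 0.27 (SE 0.08, edgeR adjusted p = 0.0226) at 1 d postpartum, and on library totals it turned to -0.05 and -0.38, neither called. The calls were made in 3 and 8 of the 15 fits with a library left out, the former only without a postpartum library. RAB23, known as a negative regulator of hedgehog signalling, stayed between 19.4 and 19.8 CPM at 2 d prepartum and then measured 32.8, 48.7 and 34.9. It rose by 1.00 in the last step (SE 0.15, edgeR adjusted p = 0.000904) and by 0.69 over the interval.

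RAB13 and RAB11FIP2 did not pass the overall test of time, at log2 fold changes of 0.68 and 0.76 after parturition, though with the sow as a block RAB13 was called. The remaining Rab GTPases, RAB3A of regulated exocytosis, RAB4A, RAB22A, RAB25 and RAB35 of endosomal recycling, RAB8B of transport to the plasma membrane and RAB32, were not called in any comparison, with log2 fold changes between -0.22 and 0.31 at 1 d postpartum.

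Syntaxins, the membrane anchored fusion proteins, had a median of 0.01 at 1 d postpartum with 0 of 4 called up by edgeR, against 0 by DESeq2. Without TMM the median was -0.62 and 1 was called down, beside 38.2% of all genes. STX7 (ENSSSCG00000004190, chr1:34705599-34758122), the syntaxin of late endosomes, was the only member to fall at 2 d prepartum. It declined from 54.4, 56.4 and 55.4 CPM at 14 d prepartum to 49.996, 46.0 and 50.9 at 10 d, 43.01, 45.6 and 44.6 at 6 d and 38.4, 42.6 and 44.6 at 2 d, and read 48.1, 52.5 and 49.2 at 1 d postpartum. The log2 fold change at 2 d prepartum was -0.41 (SE 0.08, edgeR adjusted p = 0.0241), with every 2 d library below every control, and it was -0.15 and not called after parturition. STX2 and STX11 were sparse, at counts of 11 in their lowest libraries, and STX17, the autophagosomal syntaxin, differed by 0.18 on the log2 scale at 1 d postpartum and was not called. Without replicate 37 STX11 was called up at 1 d postpartum, as was the sorting nexin SNX21.

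**Figure D3:**
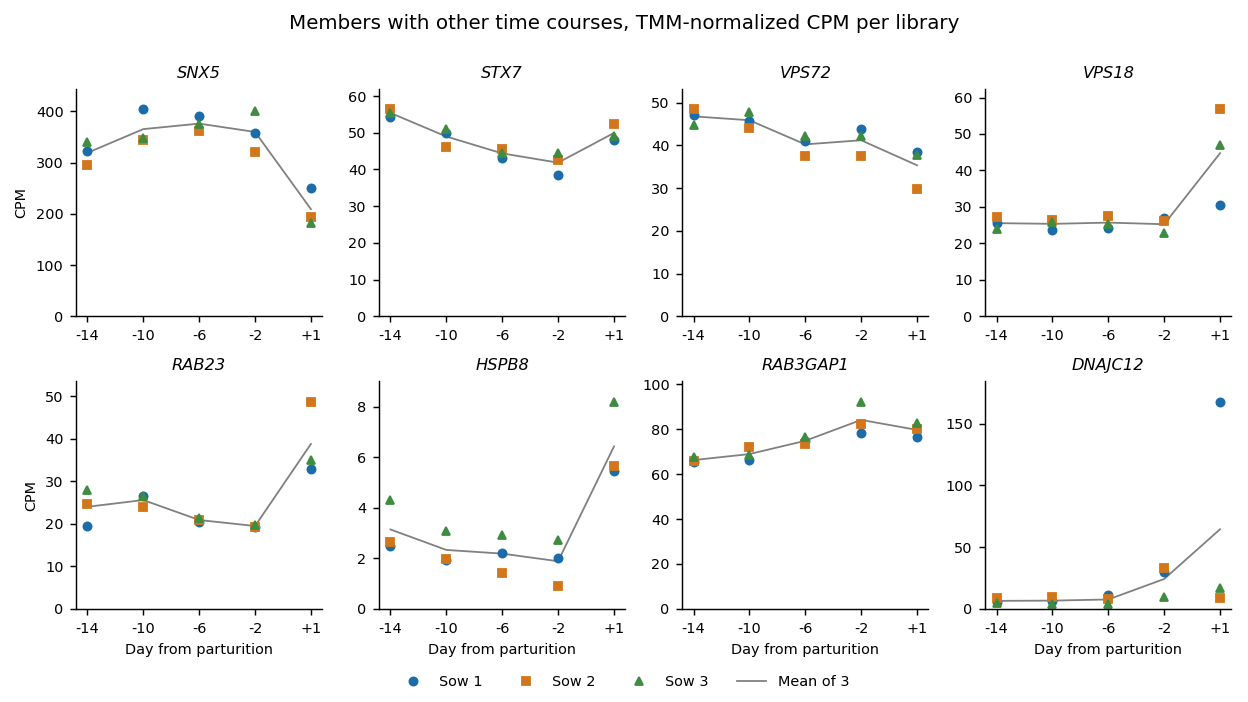
TMM-normalized CPM (y axis) against day from parturition (x axis) of 8 members outside the ER roles, 1 point per library with symbols for the sow and a line through the means of 3 libraries. SNX5 drops only after parturition, STX7 declines until 2 d prepartum, VPS18, RAB23 and HSPB8 are higher only at 1 d postpartum, and in DNAJC12 a single library of sow 1 stands at 168 CPM.

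Among 9 endosome and lysosome sorting members 1 rose and 1 fell at 1 d postpartum, 11.1% each way beside 13.3% and 10.4% of all genes, with a median of 0.08, or -0.58 without TMM, where 5 were called down. SNX5 (ENSSSCG00000007088, chr17:29776939-29797245), a sorting nexin of the retrieval route from endosomes to the Golgi, was the member that fell. It stood at 323, 295 and 339 CPM at 14 d prepartum, 404, 344 and 348 at 10 d, 390.3, 362 and 376 at 6 d, 358, 320 and 401 at 2 d and 251, 194 and 183 at 1 d postpartum. Every postpartum library was below every prepartum library. The log2 fold change was -0.61 (SE 0.13, edgeR adjusted p = 0.003) against 14 d prepartum and -0.78 (SE 0.13, edgeR adjusted p = 0.00134) against 2 d prepartum, and without TMM the former was -1.304 and still called.

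VPS18, a core subunit of the complexes that tether endosomes and lysosomes, stayed between 22.7 and 27.6 CPM in all 12 prepartum libraries and measured 30.4, 56.8 and 47.0 at 1 d postpartum. It rose by 0.81 against 14 d prepartum (SE 0.17, edgeR adjusted p = 0.00273) and 0.83 in the last step. The other 7, VPS26A of retromer, VPS28 and VPS37B of the ESCRT-I complex, SNX12, SNX14, SNX21 and DNAJC13, were not called, with values between -0.22 and 0.33 at 1 d postpartum.

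Of 6 chaperones listed apart from ER folding, 3 rose at 1 d postpartum, or 50% beside 13.3% of all genes, with a median of 0.39. Without TMM the median was -0.28, with 1 called up and 3 down, beside 3.94% and 38.2% of all genes. The lists were set by hand. DNAJC14, a J protein of the ER membrane, is among these 6, so the ER folding list does not hold every ER chaperone among the members. DNAJC12 (ENSSSCG00000010233, chr14:76968513-77003937), a cytosolic J protein that binds aromatic amino acid hydroxylases, had the largest fold change of all members. It was at 5.91, 8.96 and 4.75 CPM at 14 d prepartum, 30.1, 33.0 and 9.74 at 2 d prepartum and 168, 9.22 and 16.8 at 1 d postpartum. The change of 3.27 (SE 0.89, edgeR adjusted p = 0.0129) fell to 0.98 (SE 0.54, edgeR adjusted p = 0.174) without replicate 37, so this call rested on that library.

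HSPB8 (ENSSSCG00000009844, chr14:35688333-35701411), a small heat shock protein of chaperone-assisted autophagy, was low but showed the steepest last step. It read 2.47, 2.64 and 4.31 CPM at 14 d prepartum, 2.02, 0.907 and 2.73 at 2 d prepartum and 5.44, 5.65 and 8.18 at 1 d postpartum, with counts of 15 to 112 per library. The log2 fold change was 1.79 (SE 0.39, edgeR adjusted p = 0.0068) in the last step and 1.05 (SE 0.37, edgeR adjusted p = 0.0443) against 14 d prepartum. The latter was called in 7 of the 15 fits with a library left out and was lost without replicate 1, 4, 10, 13, 19, 28, 40 or 43, and without TMM. DNAJC17 rose by 0.62 (SE 0.14, edgeR adjusted p = 0.00391), and HSPH1, the nucleotide exchange factor of the heat shock machinery, DNAJC14 and the mitochondrial import protein DNAJC19 were not called, at 0.17, -0.29 and 0.04. VPS72 carries a VPS symbol but encodes a subunit of chromatin remodelling complexes. Its log2 fold change at 1 d postpartum was -0.41 (SE 0.11, edgeR adjusted p = 0.0109), but the overall test of time gave an adjusted p of 0.055, so it was not called.

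Sums over the members of a role took different courses. Translocation members summed to 982 to 1011 CPM at 14 d prepartum, 989 to 1104 at 10 d, 1072 to 1194 at 6 d, 1314 to 1711 at 2 d and 1517 to 2718 at 1 d postpartum. ER folding members summed to 425 to 487 CPM at 14 d prepartum, 640 to 788 at 2 d and 919 to 1365 at 1 d postpartum. Their lowest postpartum library lay above their highest prepartum one, whereas translocation sums at 2 d prepartum and 1 d postpartum overlapped. Rab members summed to 465 to 478 CPM at 14 d prepartum and 531 to 545 at 1 d postpartum, and the endosome group went from 794 to 824 CPM over 836 to 920 at 2 d down to 675 to 789. The chaperones listed apart from ER folding summed to 209.7 to 249.7 CPM at 14 d prepartum and, within that range, to 214 to 244 at 2 d. At 6 d they summed to 196 to 203 CPM, below every 14 d library. At 1 d postpartum the range was 228 to 415 CPM, with replicate 37 the highest and a median of 237. All 55 members summed to 4161 to 4202 CPM at 14 d prepartum, 5039 to 5871 at 2 d prepartum and 5503 to 8285 at 1 d postpartum, for which a two-sided exact permutation test gave p = 0.1 in either comparison, the smallest value that 3 against 3 libraries allow.

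**Figure D4:**
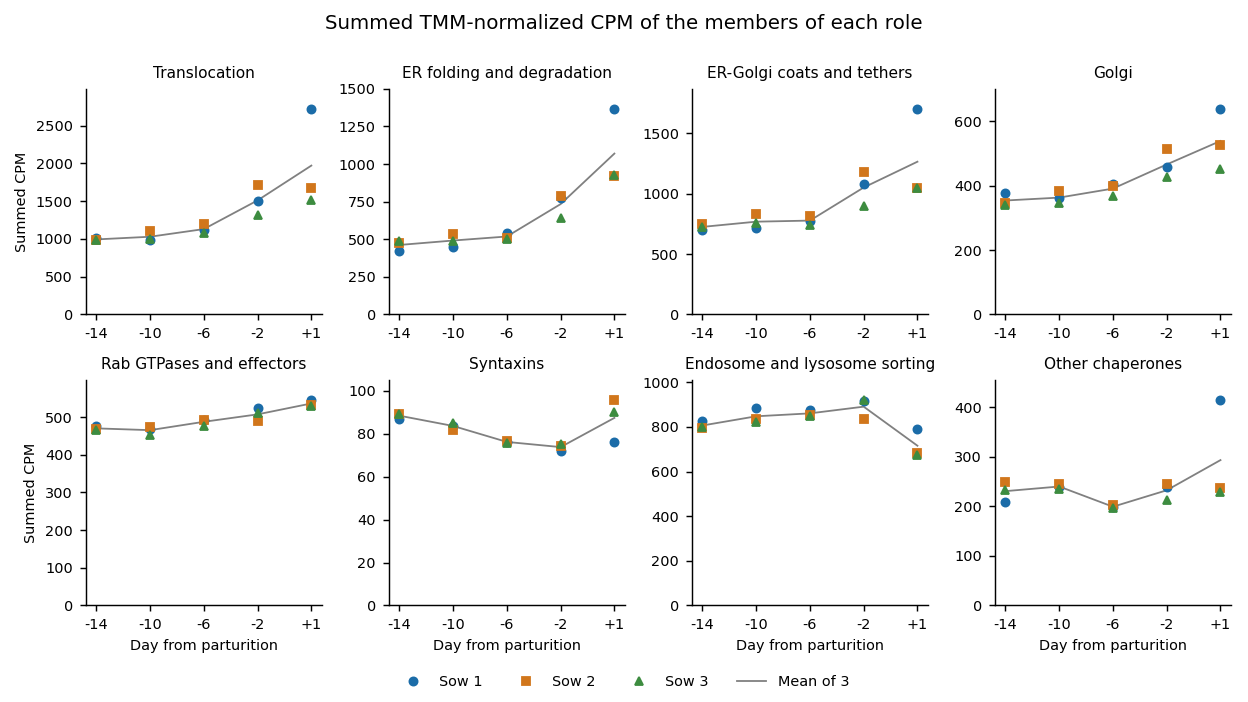
Summed TMM-normalized CPM (y axis) of the members of each role against day from parturition (x axis), 1 point per library, symbols marking the sow and the line joining the means of 3 libraries. Translocation reaches 1517 to 2718 CPM and ER folding 919 to 1365 CPM after parturition, while the syntaxin sum is lowest, 72.1 to 75.1 CPM, at 2 d prepartum.

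Per kilobase of counted exon, the scale on which genes can be set beside each other, the mean level over all 15 libraries ran from 1.05 CPM per kb for RAB3A to 490.5 for SSR2, with a median of 20.5. The 7 members above 100 CPM per kb were SSR2, PDIA3 at 320.0, RAB1B at 200.3, TRAM1 at 152, SNX5 at 128, SPCS1 at 119 and COPZ1 at 112. Of these, 6 rose and SNX5 fell at 1 d postpartum, where 13.3% of all genes were called up and 10.4% down. Without TMM SSR2, RAB1B and COPZ1 were not called. The 8 members under 5 CPM per kb were RAB3A, RAB11FIP2, STX11, HSPB8, STX2, DNAJC13, RAB23 and SEC22C, of which HSPB8 and RAB23 rose.

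Other genes of the pathway, listed by function and not members by name, gave the following counts at 1 d postpartum against 14 d prepartum, where 13.3% of all genes were called up and 10.4% down. Of 16 genes of ER folding and redox 7, or 43.75%, rose and 0 fell, with a median of 0.74 (-0.01 without TMM). SERP1, which stabilizes membrane proteins during stress, rose by 1.58 (SE 0.20, edgeR adjusted p = 0.000117), CNPY3, a cochaperone, by 0.88 and MLEC, a lectin that reads early N-glycans, by 1.67. SERP1 was also the only 1 of the 16 called at 2 d prepartum, at 0.87. Of 15 genes of vesicle traffic 7, or 46.7%, rose and 0 fell, with a median of 0.53 (-0.12 without TMM). GORASP2, a Golgi stacking protein, rose by 0.59, GBF1, an ARF exchange factor of the early Golgi, by 0.99 and LMAN1, the cargo receptor of the ER to Golgi step, by 1.93. GBF1 was called at 2 d prepartum too, at 0.72.

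N-glycosylation genes rose in 6 cases of 10 and fell in 1, with a median of 0.75 (0.05 without TMM). DOLK, which makes dolichol phosphate, rose by 0.77, ALG2, a mannosyltransferase of the lipid-linked precursor, by 1.03 and KRTCAP2, a subunit of the oligosaccharyltransferase, by 0.86, while MAN2A2, a Golgi mannosidase, fell by 0.34 on the log2 scale. The gene listed as MGAT2 is RPL36AL in the RefSeq table and counts among the 6. Of 6 stress transcription factors 1 rose and 1 fell, 16.7% each way and near the share of all genes, around a median of -0.08. CREB3, an ER-anchored factor, rose by 0.64 and HSF4, a heat shock factor, fell by 1.11, while ATF4 at 0.81 did not pass the overall test of time. The 9 cytosolic chaperone genes gave 1 up and 2 down, or 11.1% and 22.2%, with a median of -0.10. BAG3, a cochaperone of selective autophagy, rose by 0.79, and CCT3 and TCP1, subunits of the chaperonin that folds actin and tubulin, fell by 0.60 and 0.38.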

How the data were processed

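Raw gene counts were as deposited by the authors: single reads trimmed with Trimmomatic and aligned with STAR 2.5.1b after FastQC 0.11.15, then counted with featureCounts of Subread 1.5.0 on the antisense strand, against Sscrofa10.2. The file headers name the Ensembl annotation, the methods of the study RefSeq, and the identifiers are Ensembl. Coordinates are the outer bounds of the counted exons. Total counts were 10782343 to 19952918 per library, and SEs reflect the spread between libraries. Symbols came from the study's supplementary gene list (1998 entries, 1991 identifiers), which bears no test here. Members and gene lists were chosen with earlier results of these data known.

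Genes with at least 1 CPM in at least 3 libraries were fitted with edgeR 4.0.16 in R 4.3.3 (TMM, glmQLFit, glmQLFTest, time only, all 15 libraries). SE is the log2 fold change over the square root of F. Benjamini-Hochberg adjustment covered all genes tested. Genes described in full were PDIA3, every member called at 2 d prepartum, and, of members called at 1 d postpartum with libraries of both times apart, up to 12 increases and 8 decreases by fold, plus up to 3 genes by smallest p from each other list. The fit was also run on simulated counts with set changes, drawn without a sow effect or an outlying library such as replicate 37. That run therefore cannot show how the calls hold in these data. Further tools were limma 3.58.1, DESeq2 1.42.0, Python 3.11.15, pandas 2.3.3, scipy 1.17.1 and matplotlib 3.10.9.

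The labels number the libraries but name no sow. Sow was taken from a supplementary table of the study in which each of the 15 exact totals occurs, and was used for sow-by-sow values, figures and alternatives. Deviations of the libraries from their time means correlated, across genes, at 0.396 on average over 30 same-sow pairs (lowest 0.103), so the sow pairs the libraries. The mean of -0.198 over 60 other pairs largely follows from taking deviations from the time means and adds no evidence of its own. The RNA integrity number came from another supplementary table of the study, by sow and day. Alternatives were RLE and no scaling, DESeq2, limma-voom with and without the sow, the sow as a block, other filters, 6 libraries only, RNA integrity, the highest genes removed, the comparison's adjusted p alone and each library left out. Promoter and protein sequences were not used here.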

Additional observations from a re-analysis of the deposited data

How the results depend on the processing

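Members called at 2 d prepartum against 14 d prepartum depended most on the processing. The 8 up became 2 on library totals without TMM, 14 with DESeq2, 13 with the sow as a replicate block, 15 when limma-voom took the sow as random, and 0 with RNA integrity as a covariate, and ranged from 0 to 21 with single libraries left out: 0 without replicate 1, 4, 7, 28 or 31, 3 to 5 without any of the 6 libraries at 10 d and 6 d, and 21 without replicate 37. The 1 down became 3 without TMM, 0 with only the 6 libraries of the comparison and 0 with RNA integrity, and ranged from 0 to 1. At 1 d postpartum the 27 up became 9 without TMM and 0 with RNA integrity and ranged from 22 to 26. The 1 down became 13 without TMM, 0 with RNA integrity, 3 by the adjusted p of the comparison alone and 2 with DESeq2, limma-voom without the sow, the sow as a block, limma-voom with the sow, a minimum of 5 CPM or the highest genes removed, and ranged from 1 to 2. From 2 d prepartum to 1 d postpartum the 8 up became 3 without TMM, 14 with DESeq2 and 1 with the 6 libraries alone, ranging from 4 (without replicate 34) to 11, and the 1 down became 3 and 0 under the first and the last of these. At 6 d prepartum DESeq2 called 1 down. RAB3GAP1 turned to -0.052 and -0.38 and COPZ1 at 1 d postpartum to -0.021 without TMM. Of 26 calls of named genes, 26 held with DESeq2 and with the sow as a block, 24 with RLE scaling, 13 without TMM and 0 with RNA integrity. Apart from the counts given, the sow block ended no call of a named gene. The cause of these changes was not tested. With 3 libraries a time point, a member that was not called is not shown to be unchanged. The sequence motifs planned for promoters were not run.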

Other observations

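The study's list names only part of these families. A further 183 genes tested carry symbols of the same pattern in the RefSeq annotation. This wider set was put together after the data were seen, so its counts are a description. At 1 d postpartum against 14 d prepartum 58 of them (31.7%) were called up and 8 (4.37%) down by edgeR, where 13.3% and 10.4% of all genes were. Their median difference was 0.32 on the log2 scale, or -0.35 without TMM, where 18 were called up and 52 down beside 3.94% and 38.2% of all genes. At 2 d prepartum 11 (6.01%) were called up and 0 down by edgeR, beside 1.96% and 0.896% of all genes. There 65 of the 183 had an unadjusted p up to 0.05, against 21.4% of all genes, and DESeq2 called 26 up and 2 down, against 617 and 466 of all 13503 genes. With RNA integrity as a covariate 1 was called up and 1 down at 1 d postpartum and 0 at 2 d prepartum, beside 0.563% and 0.0% of all genes.

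The genes named below were chosen from the called ones after their values were seen, and stand for no group. HSPA5, the ER chaperone that binds unfolded chains, had a mean of 290 ± 51.2 CPM (SD, n = 3) at 14 d prepartum and 999 ± 352 at 1 d postpartum, a log2 fold change of 1.79 (SE 0.24, edgeR adjusted p = 0.000181). HSP90B1, its partner of the heat shock protein 90 class, rose by 1.31, and the J proteins DNAJB9 and DNAJB11 by 2.02 and 1.56. Of the disulfide isomerases PDIA4 rose by 1.73, PDIA6 by 1.06 and PDIA5 by 1.21, the last with a mean of 17.6 ± 1.24 CPM before and 40.7 ± 3.04 CPM after. PDIA4 and PDIA6 were already called up at 2 d prepartum, at 1.29 and 0.58, the latter not without TMM. Others called up at 1 d postpartum were SEC62 at 1.11, SSR3 at 1.24, the signal peptidase subunits SEC11C, SPCS2 and SPCS3 at 1.59, 1.08 and 1.00, and the receptor subunits SRPRA and SRPRB at 1.11 and 1.53. Without TMM each gene named in this paragraph kept its sign at 1 d postpartum, with SEC62, SEC11C, SPCS3 and SRPRA no longer called.

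Of the COPI coat, COPA, COPE and COPG1 rose at 2 d prepartum by 0.65, 0.83 and 0.75 and, with COPB1, at 1 d postpartum by 0.91, 0.94, 0.94 and 0.76. Without TMM these were 0.22, 0.22, 0.21 and 0.03 at 1 d postpartum, with none of them called at either time. COPG2, the other gamma subunit of the same coat, fell by 1.06 on the log2 scale, from 203 ± 3.54 to 97.0 ± 17.1 CPM. SEC24A and SEC24D of the COPII coat rose by 1.38 and 1.57.

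Among the 8 called down was HSP90AB1, the constitutive cytosolic member of its class, which fell from 3864 ± 355 to 1101 ± 63.9 CPM, a log2 fold change of -1.81 (SE 0.14, edgeR adjusted p = 4.44e-06), and the mitochondrial chaperonin pair HSPD1 and HSPE1 fell by 0.55 and 0.86. RAB3B, a GTPase of regulated exocytosis, fell by 1.87, whereas STX3, the syntaxin of the apical membrane, rose by 2.496, from a mean of 6.38 ± 1.15 to 36.6 ± 24.2 CPM.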
